A study of Mus musculus with 31 samples.

Results

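The 40 mouse genes described here encode the subunits of voltage-gated calcium channels (26 genes) and of voltage-gated sodium channels (14 genes). They were chosen by symbol alone, as every gene whose name starts with Cacna1, Cacna2d, Cacnb or Cacng, or is Scn followed by a number and a or b. All 40 had a probe on the array and all 40 passed the filter on dim probes, among 30165 features tested, of which 17897 carried a gene symbol. Brain tissue came from adult female mice of 2 inbred strains, C57BL/6J (C57) and DBA2/J (DBA), sampled from 2 regions, the nucleus accumbens (NAc) and the medial prefrontal cortex (mPFC). Litters in the repeated cross-fostering (RCF) groups were given to another dam each day from postnatal day 1 to day 4, 4 moves in all, and control litters were only lifted out and put back. All mice were weaned at day 28, the labels list no transgene, the age is given as 12 weeks in one label and as 9 to 12 weeks in another, and at most 2 mice were taken per cage or litter. The groups hold 3 control and 4 RCF samples of the C57 mPFC, 2 and 4 of the C57 NAc, 3 and 3 of the DBA mPFC, and 4 and 4 of the DBA NAc, 27 samples from 31 arrays.

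Voltage-gated calcium channels open when a neuron depolarises and let calcium in, which triggers transmitter release, firing in bursts and changes in transcription. Each is built around a pore-forming alpha1 subunit, with an intracellular beta subunit and an extracellular alpha2delta subunit that bring the pore to the membrane. Most genes of the gamma family encode TARPs, which traffic AMPA-type glutamate receptors to synapses, whereas Cacng1 and Cacng6 belong to the calcium channel gamma subunits of striated muscle. Voltage-gated sodium channels start and carry the action potential, with 1 alpha subunit as the pore and beta subunits that alter gating and adhesion. The NAc consists largely of inhibitory striatal projection neurons, and the mPFC of excitatory pyramidal neurons with interneurons between them.

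Values are log2 signals relative to the 75th percentile of the array, so they compare 1 probe across samples and say nothing about which of 2 genes is more abundant. Differences are given ± their standard error from limma. A gene is said to have changed where its Benjamini-Hochberg adjusted p over all 30165 features was under 0.05. The share of probes well above background ran from 58.57% to 81.94% across arrays. Markers went against the labels in 6 of the 27 samples, called samples in doubt. By striatal and cortical markers, C57 mPFC control 3 and C57 mPFC RCF 1 lay on the NAc side, and C57 NAc RCF 1 and the averaged arrays C57 NAc control 1 and 3 lay on the mPFC side. By strain markers, DBA mPFC control 1 and DBA NAc control 4 lay on the C57 side, and Xist was −5.87 in DBA mPFC control 1 against −0.28 to 1.5 elsewhere. Without the samples in doubt, the C57 NAc control group holds only the averaged arrays 2 and 4, assumed to vary like the other groups. Each strain and region lay on a slide of its own, so slide cannot be told apart from strain or region, while RCF and control samples shared their slide. In bulk tissue, fewer cells of a type and less RNA per cell cannot be told apart. No label ties each sample to an animal of its own, so p-values measure the spread between these samples, which may in part be technical.

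The channel genes differed among the 8 groups about as often as other genes did. In the limma F test 27 of 40 (67.5%) passed, beside 66.5% of all features. The smallest p-values belonged to Cacng6, Cacng3, Cacna1s, Cacna2d2, Scn8a, Cacnb2, Cacng7 and Cacng4, whose values are given sample by sample. Among the 13 genes that did not pass were the L-type pore Cacna1c, with group means within 0.38 of each other, the sodium beta subunit Scn2b, within 0.30, and the TARP Cacng8, within 0.42. For Cacna1c this holds for the brightest probe. A second Cacna1c probe, above background on 26 arrays, was higher in DBA by 1.02 in the mPFC and 0.49 in the NAc. Cacna1b, Scn10a, Cacna2d4, Cacng5 and Cacna1g missed the F test too (limma adjusted p = 0.0905, 0.104, 0.112, 0.143 and 0.215). Each of them passes in a single comparison below, without an overall difference among the 8 groups. Cacna1f, Cacng1, Scn10a, Scn7a and Scn9a were dim, well above background on 13, 20, 22, 16 and 16 of the 31 arrays, and the other members were above background on every array. The filter on dim probes needed at least 3 arrays of 1 group above background. Cacna1f met it only in the DBA mPFC groups, Scn7a only in mPFC groups and Scn9a only in NAc groups. Calls that these genes are higher in those groups are therefore not independent of the filter.

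**Figure D1:**
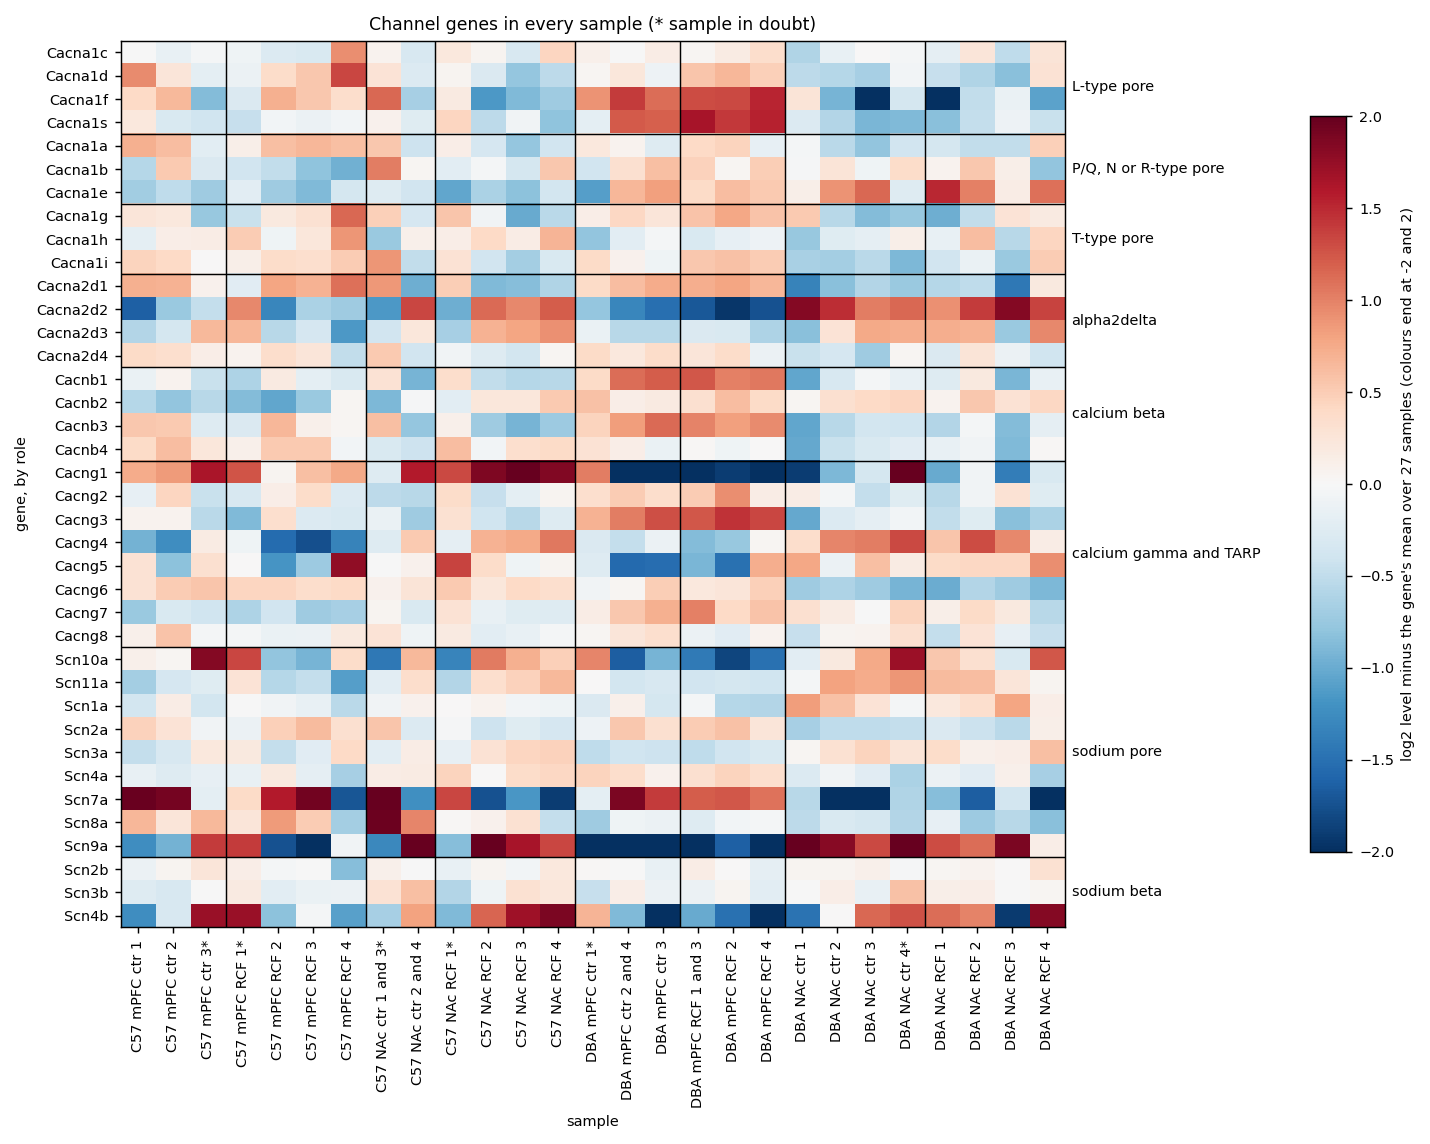
Each row is 1 of 38 of the channel genes, ordered by role, and each column is 1 of the 27 samples, with an asterisk for a sample in doubt; colour gives the log2 level minus the gene's mean over the samples. Cacng3 is red in the DBA mPFC columns, as is Cacna1s except in control 1, and Cacna2d2 and Scn9a are red in the columns of the DBA NAc, where Cacng6 is blue.

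Between the NAc and the mPFC of DBA mice, 28 of 40 channel genes (70.0%) changed, beside 56.5% of all features. Of these, 9 were higher in the NAc (19.4% of all features were) and 19 were lower (37.1%), and the median difference over the 40 was −0.36, beside −0.13 over all features. The higher genes included the alpha2delta subunit Cacna2d2 and 5 sodium pores, and the lower ones calcium pores, 3 of 4 calcium beta subunits and 4 gamma genes. Cacna2d2 and Scn4b, an alpha2delta subunit and a sodium beta subunit chosen after their values were seen, differed between regions in both strains without the samples in doubt, and are shown with the 250 bases before their RefSeq transcription start (GRCm38.p6). RefSeq start windows were found for 30 of the 40 genes, 41 windows in all. Capitals mark a match on either strand to a GC box (GGGCGG), and E boxes (CANNTG) were searched too.

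Cacna2d2, chr9:107399630-107399879, plus strand: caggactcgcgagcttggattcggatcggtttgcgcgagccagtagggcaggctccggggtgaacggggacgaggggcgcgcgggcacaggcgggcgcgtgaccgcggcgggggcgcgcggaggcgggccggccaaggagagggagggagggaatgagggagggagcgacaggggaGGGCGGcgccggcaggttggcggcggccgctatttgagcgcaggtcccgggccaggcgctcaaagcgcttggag

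Scn4b, chr9:45138374-45138623, plus strand: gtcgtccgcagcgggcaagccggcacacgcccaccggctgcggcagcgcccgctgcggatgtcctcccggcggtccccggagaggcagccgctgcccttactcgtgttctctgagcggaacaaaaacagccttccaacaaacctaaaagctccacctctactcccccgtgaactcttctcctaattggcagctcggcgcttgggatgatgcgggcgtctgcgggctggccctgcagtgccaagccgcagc

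The Cacna2d2 window was 74.4% G or C with 1 GC box, and the Scn4b window 66.0% with no match to either motif. A GC box occurred in 15 of the 41 windows of channel genes (36.6%) and in 32.7% of the 32851 windows in the table. An E box occurred in 26 of 41 (63.4%) and in 66.2% of all windows. The TATA box TATAAA was in 2 of 41 windows (12.4% of all), the AP-1 motif TGANTCA in 1 (6.75% of all) and the CRE TGACGTCA in 0 (1.55% of all). These are letter matches in a window, counted on both strands, and the GC box, E box and other motifs were searched separately.

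Cacna2d2 encodes an alpha2delta subunit, the kind of subunit that gabapentin-type drugs bind. Cacna2d2 in the DBA mPFC was 2.58, 2.05 and 1.85 in control samples and 1.67, 1.42 and 1.61 in RCF samples. Cacna2d2 in the DBA NAc was 5.20, 4.83, 4.39 and 4.51 in control samples and 4.27, 4.76, 5.20 and 4.71 in RCF samples. The lowest NAc sample was far above the highest mPFC sample, and the difference was 2.87 ± 0.38 (7.31-fold, limma adjusted p = 1.9e-06). A second probe of Cacna2d2 gave 2.63 in DBA. Between the C57 regions it gave 0.28 over all samples, against 1.03 with the brightest. Cacna2d2 in the C57 mPFC was 1.73, 2.61 and 2.89 in control samples and 4.32, 2.06, 2.72 and 2.65 in RCF samples. Cacna2d2 in the C57 NAc was 2.21 and 4.69 in control samples and 2.38, 4.49, 4.32 and 4.57 in RCF samples. The high mPFC value of 4.32 and the low NAc values of 2.21 and 2.38 are those of samples in doubt, and over all C57 samples the regional difference was 1.03 ± 0.41 (limma adjusted p = 0.107). Without the samples in doubt it was 2.26 ± 0.23 in C57 (adjusted p = 3.04e-06) and 3.01 ± 0.18 in DBA (adjusted p = 4.83e-09).

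The other alpha2delta genes moved less. Cacna2d1, which encodes the main alpha2delta subunit of many excitatory neurons, was lower in the DBA NAc than in the mPFC (−1.38 ± 0.28, limma adjusted p = 0.00027). Cacna2d4 was lower as well (−0.49 ± 0.16, adjusted p = 0.0139). Cacna2d3 did not pass over all samples (0.73 ± 0.33, adjusted p = 0.059) but did so once those in doubt were dropped (0.72 ± 0.28, adjusted p = 0.0356).

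Among the TARPs, Cacng3 and Cacng2 were lower in the DBA NAc and Cacng4 and Cacng5 higher. Cacng3 in the DBA mPFC was 1.75, 2.08 and 2.35 in control samples and 2.30, 2.50 and 2.39 in RCF samples. Cacng3 in the DBA NAc was 0.04, 0.78, 0.88 and 1.0 in control samples and 0.56, 0.81, 0.22 and 0.42 in RCF samples. The lowest DBA mPFC value stood above the values of all 21 other samples, and the regional difference was −1.64 ± 0.19 (3.11-fold lower in the NAc, limma adjusted p = 2.59e-07). Cacng3 in the C57 mPFC was 1.13, 1.13 and 0.52 in control samples and 0.18, 1.39, 0.78 and 0.76 in RCF samples. Cacng3 in the C57 NAc was 0.93 and 0.35 in control samples and 1.37, 0.66, 0.51 and 0.80 in RCF samples. The C57 regions overlapped over all samples (−0.11 ± 0.20, adjusted p = 0.752), and without the samples in doubt the difference was −0.55 ± 0.19 (adjusted p = 0.0391).

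Cacng4, a TARP, was the only channel gene to pass in the C57 regional comparison over all samples. Cacng4 in the C57 mPFC was −3.13, −3.42 and −2.01 in control samples and −2.27, −3.71, −3.93 and −3.52 in RCF samples. Cacng4 in the C57 NAc was −2.44 and −1.65 in control samples and −2.36, −1.48, −1.42 and −1.12 in RCF samples. The 2 highest mPFC samples, at −2.01 and −2.27, and the 2 lowest NAc samples, at −2.44 and −2.36, are all in doubt. The difference was 1.29 ± 0.30 (2.44-fold higher in the NAc, limma adjusted p = 0.00942) and 2.0 ± 0.25 (adjusted p = 2.72e-05) without the samples in doubt. Cacng4 in the DBA mPFC was −2.46, −2.66 and −2.30 in control samples and −3.05, −2.94 and −2.14 in RCF samples. Cacng4 in the DBA NAc was −1.82, −1.20, −1.15 and −0.85 in control samples and −1.63, −0.88, −1.22 and −2.03 in RCF samples. Every DBA NAc sample was above every DBA mPFC sample (1.24 ± 0.28, adjusted p = 0.000695). Cacng5 rose in the DBA NAc by 1.28 ± 0.39 (adjusted p = 0.00788), Cacng2, the TARP known as stargazin, fell (−0.61 ± 0.17, adjusted p = 0.00359), and Cacng8 did not pass (−0.16 ± 0.14, adjusted p = 0.335).

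Cacng6, a gamma subunit known from striated muscle, had the smallest p in the F test, and its DBA NAc samples stood apart from all others. Cacng6 in the DBA mPFC was −1.92, −1.81 and −1.36 in control samples and −1.64, −1.61 and −1.38 in RCF samples. Cacng6 in the DBA NAc was −2.57, −2.47, −2.56 and −2.78 in control samples and −2.84, −2.44, −2.57 and −2.75 in RCF samples. All 8 DBA NAc samples lay below all 19 others, and the regional difference in DBA was −1.0 ± 0.10 (2.0-fold lower in the NAc, limma adjusted p = 2.69e-08). Cacng6 in the C57 mPFC was −1.57, −1.35 and −1.30 in control samples and −1.43, −1.43, −1.5 and −1.46 in RCF samples. Cacng6 in the C57 NAc was −1.76 and −1.60 in control samples and −1.33, −1.62, −1.45 and −1.52 in RCF samples. The C57 regions overlapped, with a difference of −0.15 ± 0.10 (95% interval −0.37 to 0.06, adjusted p = 0.361). Of the 5 features whose levels followed Cacng6 most closely over the 27 samples, 4 have no gene symbol (Pearson r 0.927 to 0.956) and the other is Unc93a2 (r = 0.927). These r values describe samples that share slides, and carry no test.

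The L-type pores fell in the DBA NAc in 3 of 4 cases. Cacna1s, the pore of the skeletal muscle calcium channel, in the DBA mPFC was −1.40, 0.02 and −0.01 in control samples and 0.43, 0.20 and 0.33 in RCF samples. Cacna1s in the DBA NAc was −1.49, −1.80, −2.13 and −2.10 in control samples and −2.04, −1.69, −1.31 and −1.65 in RCF samples. The DBA mPFC samples stood near 0 or above except control 1, a sample in doubt, which fell among the NAc values. The difference was −1.70 ± 0.21 (3.25-fold lower in the NAc, limma adjusted p = 6.82e-07), and a second probe gave −2.34. Cacna1s in the C57 mPFC was −1.0, −1.52 and −1.61 in control samples and −1.67, −1.27, −1.33 and −1.26 in RCF samples. Cacna1s in the C57 NAc was −1.13 and −1.45 in control samples and −0.78, −1.74, −1.28 and −2.01 in RCF samples. The C57 regions overlapped (0.01 ± 0.22, adjusted p = 0.985; −0.29 ± 0.19, adjusted p = 0.285, without the samples in doubt). Cacna1d, a low-threshold L-type pore of neurons, was lower in the DBA NAc (−0.74 ± 0.21, limma adjusted p = 0.00528), and a second probe gave −1.20. The dim Cacna1f, a pore known from the retina, was lower too (limma adjusted p = 6.47e-05). Only the DBA mPFC groups carried it past the filter on dim probes, so that p-value is not independent support. Cacna1f was above background on 8 of 8 mPFC arrays and on 1 of 8 NAc arrays, with means of −4.66 and −6.80, so the size of its difference was not measured. Cacna1c, the main L-type pore of brain and heart, did not pass (−0.25 ± 0.17, 95% interval −0.60 to 0.10, adjusted p = 0.216), and its second probe gave −0.42.

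Skeletal muscle markers and Cacna1s were both highest in the DBA mPFC, apart from samples in doubt. The mean level of Acta1, Ckm, Myh4 and Tnnt3 was −3.08 to −2.45 in DBA mPFC samples, −4.48 to −3.63 in the C57 mPFC and −4.51 to −3.92 in the C57 NAc. In the DBA NAc it was −4.53 to −3.92 apart from control 4, a sample in doubt, which had −2.75 and a Cacna1s level of −2.10. DBA mPFC control 1 had a marker mean of −3.08 with Cacna1s at −1.40. Of these 4 markers, 3 were lower in the DBA NAc than in the DBA mPFC, and all 4 were higher in the DBA than in the C57 mPFC. Ckm was above background on 5 of 8 DBA mPFC arrays, on 2 of 8 DBA NAc arrays and on 0 C57 arrays. Cacng1, also a muscle gamma subunit, was lower in the DBA than in the C57 mPFC, and was well above background on 1 of 8 DBA mPFC arrays. The part of muscle RNA in the values of Cacna1s, Scn4a, Cacng6 and Cacng1 was not tested.

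None of the P/Q, N and R-type pores, which drive transmitter release, passed in the DBA regional comparison. Cacna1a, the P/Q-type pore, was −0.44 ± 0.20 (limma adjusted p = 0.0592), Cacna1b, the N-type pore, −0.20 ± 0.23 (0.472) and Cacna1e, the R-type pore, 0.39 ± 0.27 (0.218). A second Cacna1a probe gave −0.79. Of the T-type pores, which open at low voltage and support bursts, Cacna1i (−0.77 ± 0.19, adjusted p = 0.00161) and Cacna1g (−0.79 ± 0.28, adjusted p = 0.0206) were lower in the NAc, and Cacna1h did not pass (0.17 ± 0.19, 0.457). A second Cacna1h probe gave −0.61. Of the beta subunits, Cacnb3 (−1.37 ± 0.22, 2.58-fold), Cacnb1 (−1.34 ± 0.22, 2.53-fold) and Cacnb4 (−0.42 ± 0.15, 1.34-fold) were lower in the NAc, and Cacnb2 differed by −0.05 ± 0.16 (adjusted p = 0.79), where its second probe gave 1.04.

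The sodium pores split by gene in the DBA regional comparison, 5 higher in the NAc, 4 lower and Scn8a not passing. Scn9a, a pore best known from peripheral sensory neurons, was at −8.12, −7.68 and −7.96 in DBA mPFC control samples and −8.15, −7.29 and −8.39 in RCF samples. Scn9a in the DBA NAc was −3.40, −3.83, −4.33 and −3.60 in control samples and −4.35, −4.54, −3.77 and −5.53 in RCF samples. The probe was not well above background on any of the 8 DBA mPFC arrays and was on all 8 NAc arrays. Set against the dimmest signals above background, Scn9a was at least 4.6-fold higher in the NAc, and at least 3.9-fold without the samples in doubt. These are lower bounds, since the mPFC side was at background. The means over all samples were −4.17 and −7.93 (limma adjusted p = 1.9e-05). Only NAc groups carried the probe past the filter on dim probes, so that p-value is not independent support. Scn7a, which encodes a sodium-sensing relative of these pores, showed the reverse, above background on all 8 mPFC and none of the NAc arrays. On the same reading it was at least 3.3-fold lower in the NAc (means −6.97 and −4.48, limma adjusted p = 0.00412), and at least 4.11-fold without the samples in doubt. Only mPFC groups carried Scn7a past the filter, so the same limit holds for its p-value.

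Of the main sodium pores of central neurons, Scn2a, which is prominent in excitatory neurons, was lower in the DBA NAc (−0.76 ± 0.14, limma adjusted p = 0.000132). Scn3a, known for its high level before birth, was higher (0.70 ± 0.14, 0.00018), as was Scn1a, a pore on which fast-spiking interneurons rely (0.68 ± 0.14, 0.000337). Scn11a and Scn10a, pores of sensory neurons, were higher (0.80 ± 0.21 and 1.59 ± 0.49), with Scn10a above background on 8 of 8 NAc and 3 of 8 mPFC arrays. Scn4a of skeletal muscle was lower (−0.59 ± 0.13). Scn8a, a pore of the axon initial segment and nodes, did not pass (−0.30 ± 0.20, 95% interval −0.70 to 0.11).

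Of the sodium beta subunits, Scn2b and Scn3b did not pass between the DBA regions (0.10 ± 0.11 and 0.23 ± 0.13). Scn4b, a beta subunit known for its high level in striatum, was singled out after its values were seen. Scn4b in the DBA mPFC was 4.18, 2.62 and 1.32 in control samples and 2.49, 2.0 and 1.47 in RCF samples. Scn4b in the DBA NAc was 2.03, 3.51, 4.64 and 4.78 in control samples and 4.61, 4.49, 1.58 and 5.34 in RCF samples. The NAc samples spread widely, with control 1 at 2.03 and RCF 3 at 1.58 inside the mPFC range, and the difference of 1.53 ± 0.66 missed the threshold (adjusted p = 0.0514). The mean of the striatal markers was 1.5 and 1.51 in those same samples, and 2.92 to 3.44 in the other DBA NAc samples. Without the samples in doubt Scn4b was higher in the NAc of both strains (1.72 ± 0.55, adjusted p = 0.0125 in DBA; 1.90 ± 0.67, adjusted p = 0.0464 in C57).

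**Figure D2:**
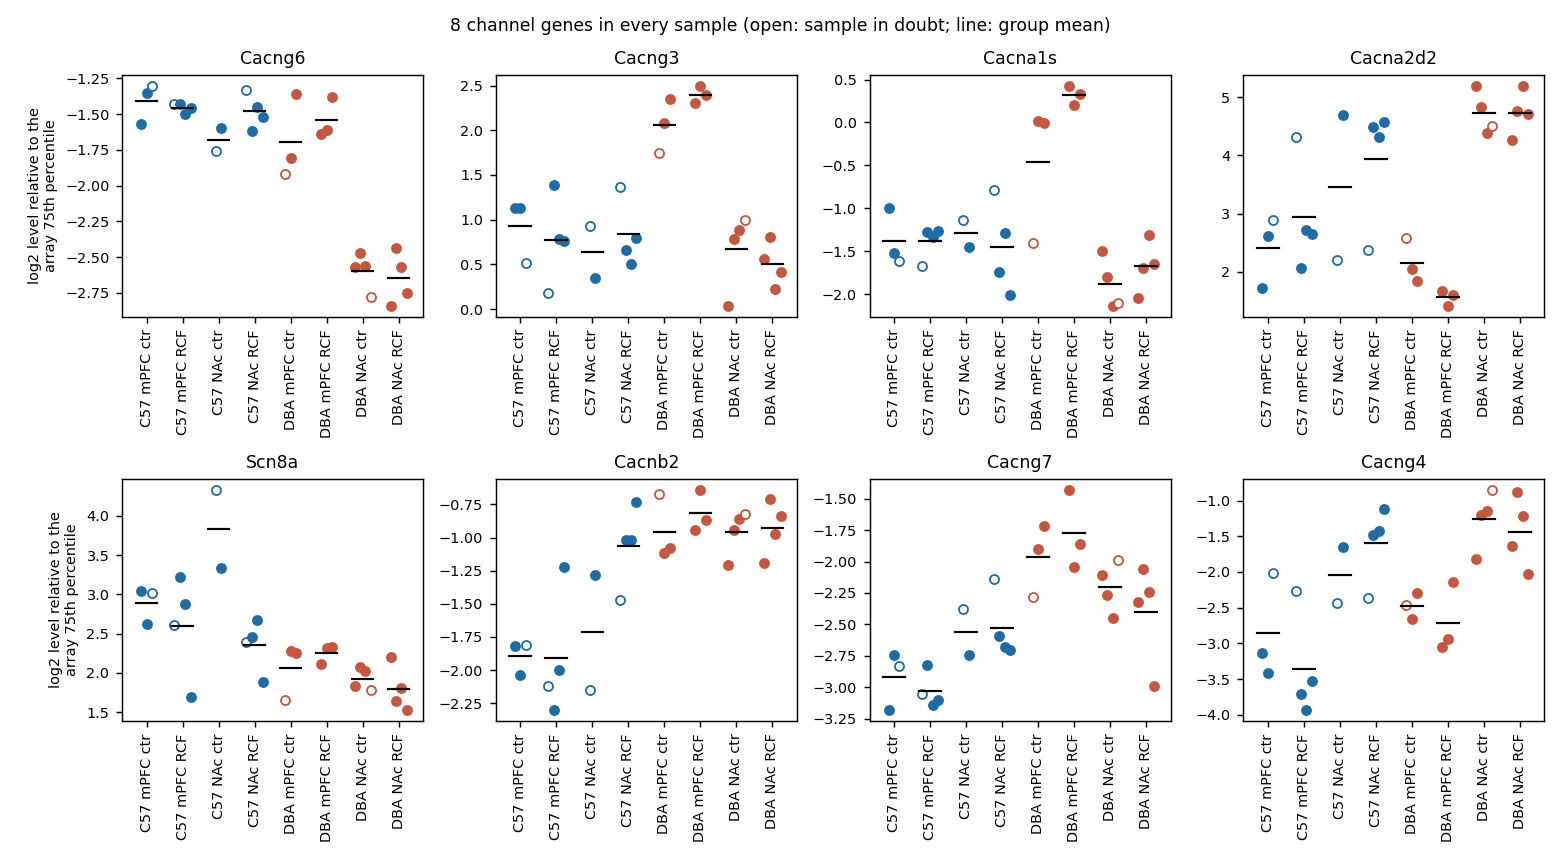
Each panel shows 1 of the 8 channel genes with the smallest F-test p, with the log2 level relative to the array 75th percentile on the y axis and the 8 groups on the x axis; points are samples (open where in doubt, blue C57, red DBA) and lines are group means. The 8 DBA NAc samples of Cacng6 lie between −2.84 and −2.44, below every other sample, and Cacng3 is highest in the DBA mPFC, at 1.75 to 2.50.

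Sample by sample, the DBA regions did not overlap for 13 of the 40 genes, beside 30.7% of all features. All 16 striatal markers were tested, and 15 of them were higher in the DBA NAc, while 13 of 13 cortical markers were lower. Their part in the channel genes' differences was not tested. In C57, 1 of 40 channel genes passed over all samples, beside 10% of all features (3.74% higher in the NAc). None of the 16 striatal markers passed there, and 3 of 13 cortical markers were lower in the NAc (median over the list −2.40). The count in C57 was 8 without NAc control 1 and 3, 8 without NAc RCF 1, 5 without mPFC RCF 1, 3 without mPFC control 3, 2 without any of mPFC RCF 2, mPFC RCF 4 or NAc RCF 2, and 0 without NAc control 2 and 4.

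Without the 6 samples in doubt, 21 of 40 channel genes (52.5%) passed between the C57 regions, beside 25.5% of all features, 10 of them higher in the NAc (11% of all features) and 11 lower (14.5%). The C57 regions then did not overlap for 18 of 40 genes, beside 25.3% of all features, against 0 and 3.76% over all samples. The samples left out in C57 were chosen by markers of these same regions, which bears on how far the remaining samples stand apart. Only the averaged controls 2 and 4 then stood for the C57 NAc control group, whose mean weighs as much as the RCF mean. In DBA 30 of 40 passed, beside 56.7% of all features, and 20 did not overlap, beside 39.7%. The comparisons in C57 and DBA share no sample, and 18 genes passed in both, 85.7% of the C57 list and 60.0% of the DBA list. Over all features these shares were 74.0% and 33.3%. All 18 changed in the same direction, beside 96.2% of the features called in both strains, and the sign was the same for 87.5% of channel genes and 68.6% of all features.

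Higher in the NAc of both strains were Cacna2d2, Cacna2d3, Cacng1, Cacng4, Scn3a, Scn4b, Scn9a and Scn11a. Among those lower in both were Cacna1d, Cacna1f, Cacna1i, Cacna2d1, Cacnb1, Cacnb3, Cacng3, Scn2a and Scn7a. Scn9a, Scn7a and Cacna1f passed the filter on dim probes only through groups of the region where they are higher. Their shared sign, and their part in the counts for both strains, are therefore not independent of the filter. Over all C57 samples the second Cacna1d probe gave −0.01 against −0.62 with the brightest, and the dimmest Scn2a probe gave 0.14 against −0.33. Passing in C57 and not in DBA were Cacna1a (−1.10 ± 0.22 in C57, −0.40 ± 0.17 in DBA), Cacnb2 (0.78 ± 0.19 and −0.01 ± 0.16) and Scn3b (0.60 ± 0.10 and 0.08 ± 0.08). For Cacnb2 and Scn3b the difference between the strains itself passed (adjusted p = 0.0331 and 0.0122), and for Cacna1a it did not (0.0885). The second Cacnb2 probe gave the reverse order over all samples, 0.42 in C57 and 1.04 in DBA, so this strain difference belongs to 1 probe. For Cacna1a the second probe gave −0.70 in C57 and −0.79 in DBA over all samples, against −0.58 and −0.44 with the brightest.

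**Figure D3:**
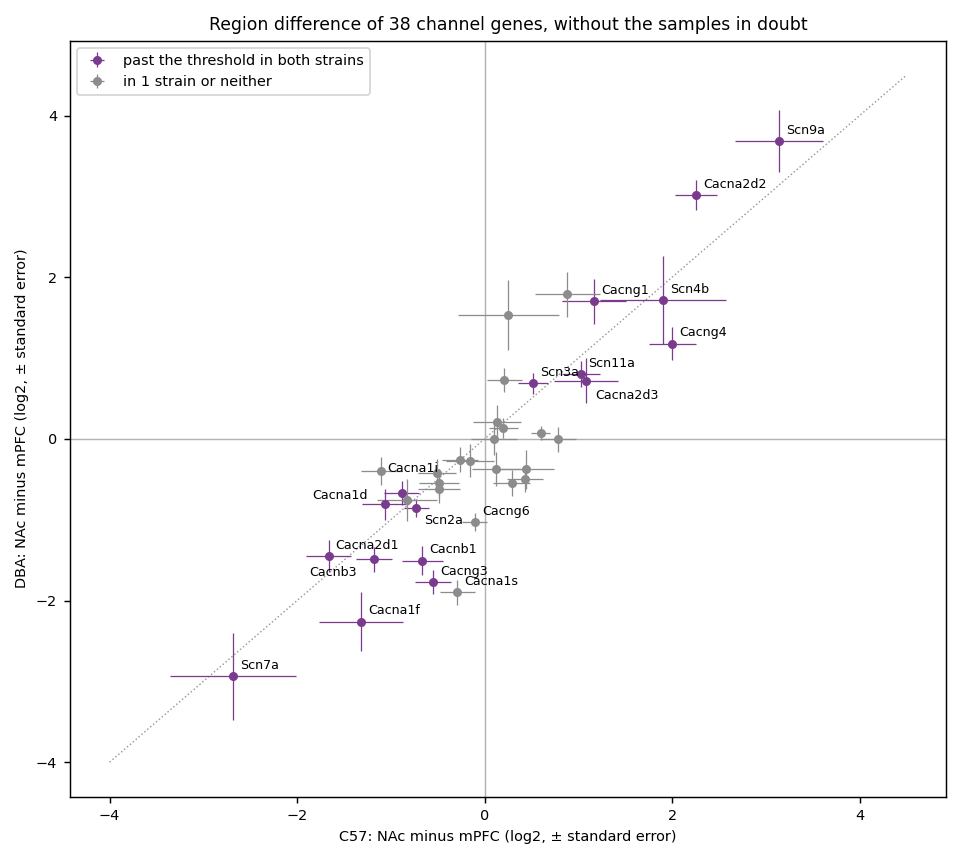
Each point is 1 of 38 of the channel genes, with the NAc minus mPFC difference (log2, bars are the standard error) in C57 on the x axis and in DBA on the y axis, both without the samples in doubt; the dotted line marks equal differences. Purple points are the 17 genes drawn that passed the threshold in both strains, all with the same sign in both, and Cacng6 and Cacna1s lie at −0.11 and −0.29 in C57 and at −1.03 and −1.90 in DBA; values of the dim genes Scn9a, Scn7a, Cacna1f and Cacng1 reach background on 1 side in at least 1 strain.

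The strains differed within the mPFC in 16 of 40 channel genes, beside 48.1% of all features. Of these, 12 were higher in DBA (29.1% of all features) and 4 lower (19.1%), and without the samples in doubt 15 passed, beside 43.9%. Among those higher in DBA were pores (Cacna1s, Cacna1e, Cacna1b, Cacna1f, Scn4a), 3 of 4 calcium beta subunits and the TARPs Cacng3, Cacng7 and Cacng2. The lower genes were Cacng1, Scn8a, Scn9a and Scn10a. Once the samples in doubt were dropped, Cacna1f, Cacng2, Scn8a and Scn9a no longer passed (adjusted p = 0.117, 0.131, 0.116 and 0.0601), and Cacng4 (higher in DBA), Cacna1a and Cacna2d2 (lower) did. The other Scn8a probes gave −0.13 and 0.13 in the mPFC, against −0.59 with the brightest. For Cacna1a the second probe gave 0.007 in the mPFC over all samples, against −0.32 with the brightest. Cacng3 was 2.59-fold higher in DBA (1.37 ± 0.19, limma adjusted p = 7.49e-06), Cacna1s 2.48-fold (1.31 ± 0.22), Cacnb1 2.31-fold (1.21 ± 0.23) and Cacna1e 1.88-fold (0.91 ± 0.27). Cacnb3 (0.67 ± 0.22) and Scn4a (0.52 ± 0.14) differed less. These values use the DBA mPFC samples of the regional comparison too, so they are not independent of it. Markers of other cells also differed between the strains in the mPFC: 6 of 16 striatal markers were lower in DBA (median over the list −1.68), as were 5 of 11 oligodendrocyte and 3 of 8 astrocyte markers, while 2 of 13 cortical markers and the 4 muscle markers were higher. When the samples in doubt were left out, 6 of 16 striatal (median −0.96) and 6 of 11 oligodendrocyte markers were lower, and the mean of the striatal markers was −0.74 to −0.52 in DBA and −0.44 to 1.16 in C57 samples. The part of these cells in the strain differences was not tested.

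Cacng7, a TARP-like gamma subunit, in the DBA mPFC was −2.28, −1.90 and −1.72 in control samples and −1.43, −2.04 and −1.86 in RCF samples. Cacng7 in the C57 mPFC was −3.18, −2.74 and −2.83 in control samples and −3.05, −2.82, −3.14 and −3.10 in RCF samples. The strains did not overlap in the mPFC, as for 6 channel genes in all and 25.0% of all features, and the difference was 1.10 ± 0.16 (2.14-fold higher in DBA). Cacng7 in the DBA NAc was −2.11, −2.27, −2.45 and −1.99 in control samples and −2.32, −2.06, −2.24 and −2.99 in RCF samples. Cacng7 in the C57 NAc was −2.38 and −2.74 in control samples and −2.14, −2.59, −2.68 and −2.70 in RCF samples. There the strains overlapped (0.24 ± 0.16, limma adjusted p = 0.243).

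Cacnb2, a beta subunit of neurons and heart, in the DBA mPFC was −0.67, −1.12 and −1.08 in control samples and −0.94, −0.64 and −0.87 in RCF samples. Cacnb2 in the C57 mPFC was −1.82, −2.04 and −1.81 in control samples and −2.12, −2.30, −2.0 and −1.22 in RCF samples. Every DBA mPFC value was above every C57 mPFC value, by 1.01 ± 0.17 on average (2.02-fold). Cacnb2 in the DBA NAc was −1.21, −0.94, −0.86 and −0.82 in control samples and −1.19, −0.71, −0.97 and −0.84 in RCF samples. Cacnb2 in the C57 NAc was −2.15 and −1.28 in control samples and −1.47, −1.02, −1.02 and −0.73 in RCF samples. The NAc difference of 0.45 ± 0.17 (limma adjusted p = 0.044) was lost without the samples in doubt (0.14 ± 0.18, 0.629). A second probe of Cacnb2 had the opposite sign in both regions, −0.73 in the mPFC and −0.12 in the NAc, so the strain difference belongs to 1 probe and not to the gene as a whole.

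Cacng1 was lower in the DBA mPFC (means −6.77 and −4.01, limma adjusted p = 0.000921), where it was above background on 1 of 8 arrays, against 7 of 7 in C57. That 1 array is DBA mPFC control 1, whose strain markers lay on the C57 side, with Cacng1 at −3.85 where the other DBA mPFC samples were −8.0 to −6.77. DBA NAc control 4, the other such sample, was at −2.21 where the other DBA NAc samples were −6.77 to −4.95. With both left out, along with the other samples in doubt, Cacng1 was above background on 0 of 7 DBA and 5 of 5 C57 mPFC arrays. Set against the dimmest signals above background, Cacng1 was then at least 3.77-fold lower in the DBA mPFC (means −7.45 and −4.25). In the NAc it was then above background on 4 of 7 DBA and 5 of 5 C57 arrays (means −5.75 and −3.08, adjusted p = 1.01e-05). Scn9a passed in the mPFC over all samples (adjusted p = 0.0198), but it was above background on 0 of 8 DBA and 3 of 7 C57 arrays, so no size is given.

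In the NAc the strains differed in 8 of 40 channel genes, 4 higher in DBA and 4 lower, beside 31.9% of all features (12.8% higher, 19.1% lower). Cacna1e, the R-type pore, was higher in DBA in both regions (1.23 ± 0.27 in the NAc, limma adjusted p = 0.00162; 0.91 ± 0.27 in the mPFC, 0.00891), and its NAc values did not overlap between strains, as for Cacng6 and 8.33% of all features. Cacng6 was 2.06-fold lower in the DBA NAc (−1.04 ± 0.10, adjusted p = 1.02e-07), and the brightest probe of Scn8a was 2.35-fold lower (−1.23 ± 0.20, adjusted p = 8.49e-05). The other Scn8a probes gave 0.17 and −0.07, so that difference belongs to 1 of 3 probes. Scn4a (−0.50 ± 0.14) and Cacng1 were lower in DBA too, and Scn1a (0.39 ± 0.15), Cacnb2 and Cacna2d2 (1.04 ± 0.39, adjusted p = 0.0475) were higher. The second Cacna2d2 probe gave 0.52. Without the samples in doubt 6 genes passed, beside 23.5% of all features, with Scn3b among them and Cacna2d2, Cacnb2, Scn1a and Scn4a no longer so. The count over all samples was 5 or 4 when any 1 of C57 NAc control 1 and 3, C57 NAc RCF 1 or 3, DBA NAc control 1, 2 or 3, or DBA NAc RCF 2 or 3 was left out.

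The regional difference itself differed between strains in 12 of 40 channel genes (30.0%), beside 31.4% of all features. It was lower in DBA, that is, more toward the mPFC, for 9 genes (21.5% of all features), among them Cacna1s (−1.71 ± 0.31, limma adjusted p = 0.000236), Cacng3 (−1.52 ± 0.27, 0.000252), Cacnb1 (−1.22 ± 0.32, 0.00617) and Cacng6 (−0.85 ± 0.14, 0.000121). It was higher for Cacna2d2, Scn9a and Scn10a (9.89% of all features), and each missed the threshold once the samples in doubt were dropped (adjusted p = 0.0784, 0.572 and 0.171). Without those samples 9 genes passed, all lower in DBA, beside 18.8% of all features (14.9% lower), among them Cacna1s, Cacng6, Cacng3, Scn3b, Scn4a, Cacng7, Cacnb1 and 1 of the probes of Cacnb2. Leaving out C57 NAc control 2 and 4 raised the count over all samples to 19.

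Of the 4 comparisons of RCF with control, 1 gave a changed channel gene. In the C57 NAc Scn8a was lower in RCF than in control samples, 1 of 40 genes (2.5%), beside 0.58% of all features (0.514% lower). Scn8a in the C57 NAc was 4.33 and 3.34 in control samples and 2.39, 2.46, 2.67 and 1.89 in RCF samples. Both control samples were above all RCF samples, but the higher of them, at 4.33, is the averaged pair in doubt. The difference was −1.48 ± 0.31 (95% interval −2.13 to −0.83, 2.79-fold lower, limma adjusted p = 0.0334). Without the samples in doubt 1 control sample was left, assumed to vary like the other groups, and the difference of −1.0 ± 0.41 did not pass (adjusted p = 1.0), where 0.0232% of all features did. It did not pass either without NAc control 1 and 3, NAc RCF 1, NAc RCF 2 or NAc RCF 4 in turn, while 4 channel genes passed without NAc control 2 and 4. The other probes of Scn8a gave −0.55 and −0.41.

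Scn8a in the C57 mPFC was 3.04, 2.62 and 3.02 in control samples and 2.61, 3.22, 2.88 and 1.69 in RCF samples. Scn8a in the DBA mPFC was 1.66, 2.28 and 2.25 in control samples and 2.12, 2.32 and 2.33 in RCF samples. Scn8a in the DBA NAc was 1.84, 2.07, 2.02 and 1.78 in control samples and 2.20, 1.64, 1.81 and 1.53 in RCF samples. RCF and control samples overlapped in each of these, with differences of −0.30 ± 0.28, 0.19 ± 0.30 and −0.13 ± 0.26. Whether the RCF difference itself varied was not resolved, since neither the strain by RCF term in the NAc (1.35 ± 0.40, limma adjusted p = 0.427) nor the region by RCF term in C57 (−1.19 ± 0.42, 0.921) passed.

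**Figure D4:**
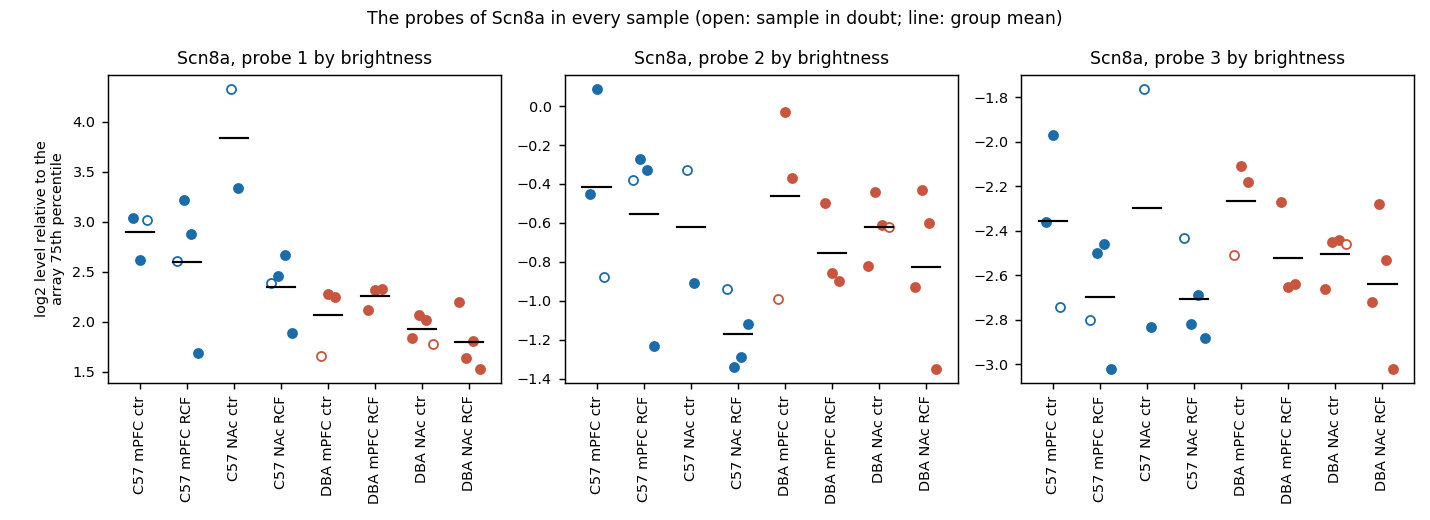
Each panel shows 1 of the 3 probes of Scn8a, from the brightest to the dimmest, with the log2 level relative to the array 75th percentile on the y axis and the 8 groups on the x axis; points are samples (open where in doubt, blue C57, red DBA) and lines are group means. With the brightest probe both C57 NAc control samples (4.33 and 3.34) lie above the RCF samples (1.89 to 2.67), and with the others the lower control sample lies among the RCF samples or close to them.

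In the other RCF comparisons limma called 0 of the 40 genes and 0.0% of all features. At an unadjusted p under 0.05 the mPFC gave 0 channel genes in C57 and 1 in DBA, and the DBA NAc gave 0. The smallest p-values in the C57 mPFC were those of Cacna1b (−0.54 ± 0.32), Scn2b (−0.25 ± 0.16) and Cacna1h (0.36 ± 0.27). In the DBA mPFC they were those of Cacna1s (0.78 ± 0.32, 95% interval 0.13 to 1.44, where the low control sample is in doubt), Cacna1d (0.51 ± 0.32) and Cacna1i (0.42 ± 0.29). In the DBA NAc they were those of Cacna1i (0.51 ± 0.25), Cacna1h (0.35 ± 0.25) and Scn2a (0.25 ± 0.19). The median size of the RCF difference over the 40 genes was 0.14 and 0.19 in the C57 and DBA mPFC, 0.18 in the DBA NAc and 0.41 in the C57 NAc, where only 2 control samples were left.

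The 4 interactions with RCF also gave 0 calls among the 40 genes and 0.0% of all features, with 0, 3, 3 and 0 channel genes at an unadjusted p under 0.05 for strain by RCF in the mPFC, strain by RCF in the NAc, region by RCF in C57 and region by RCF in DBA. The smallest p-values for strain by RCF were those of Cacna1s (0.79 ± 0.43), Cacna1b (0.69 ± 0.47) and Cacna2d2 (−1.12 ± 0.79) in the mPFC, and of Scn8a, Cacna1i (0.97 ± 0.40) and Scn2a (0.65 ± 0.30) in the NAc. For region by RCF they were those of Scn8a, Cacnb4 (0.81 ± 0.32) and Scn3b (−0.61 ± 0.28) in C57, and of Cacna1s (−0.58 ± 0.42), Cacng3 (−0.51 ± 0.37) and Cacng7 (−0.39 ± 0.30) in DBA. None of these has an adjusted p under the threshold.

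Genes of proteins that bind, anchor or modulate these channels, or form related cation channels, were read from a list of 49, of which 47 were tested. Between the DBA regions 24 changed (51.1%, beside 56.5% of all features), 5 higher in the NAc and 19 lower, with Stac, which binds L-type channels, up by 3.44 ± 0.54 and the synaptic membrane protein syntaxin gene Stx1a (−3.25 ± 0.51), the endolysosomal two-pore channel gene Tpcn2 (−1.79 ± 0.18) and the nodal adhesion gene Nrcam (−1.19 ± 0.18) down. Between the C57 regions 4 changed (8.51%, beside 10%), Catsper4 (0.60 ± 0.16) upward and Unc80 (−0.44 ± 0.11), Nrcam (−0.68 ± 0.19) and Fam155a (−0.76 ± 0.23) downward, and 18 did without the samples in doubt (25.5% of all features did). Between strains 18 changed in the mPFC (38.3%, beside 48.1%), 12 higher in DBA, with Tpcn2 (1.30 ± 0.18) and Ncs1 (0.60 ± 0.10) up and the sodium leak channel gene Nalcn (−1.10 ± 0.12) and Fgf14 (−0.53 ± 0.10), whose product binds sodium channels, down. In the NAc 12 changed (25.5%, beside 31.9%), 8 of them lower in DBA, led by Akap7 (−1.82 ± 0.18), Catsper4 (−1.37 ± 0.15) and Nalcn (−0.66 ± 0.12), with Rem1 higher (1.79 ± 0.38). In the C57 NAc, Nalcn (−1.20 ± 0.19, limma adjusted p = 0.0114) and Catsper4 (−1.16 ± 0.24, 0.0309) were lower in RCF than in control samples (4.26% of the list, beside 0.58% of all features). Neither passed without the samples in doubt. The other RCF comparisons and the interactions with RCF called 0 of the 47, and the strain by region term called 13 (27.7%, beside 31.4%), led by Tpcn2 (−1.78 ± 0.26), Ncs1 (−0.69 ± 0.13), Unc13a (−1.08 ± 0.24) and Akap7 (−1.04 ± 0.26).

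Several of the genes are neighbours on their chromosomes, and some neighbours changed in opposite directions. Cacng7, Cacng8 and Cacng6 follow each other on chromosome 7 with no gene between them, and in the DBA regional comparison they differed by −0.43, −0.16 and −1.0. Cacng1, Cacng4 and Cacng5 follow each other on chromosome 11, and all 3 were higher in the DBA NAc. On chromosome 2, Scn3a and Scn2a are adjacent and changed in opposite directions (0.70 and −0.76), as did the neighbours Scn9a and Scn7a (3.76 and −2.50 as fitted, with 1 side at background). Scn10a and Scn11a are adjacent on chromosome 9, with 1.59 and 0.80. Of 17 calls for genes with a further probe, all probes had the same sign in 13, and the exceptions were Scn8a and Cacnb2 in the comparisons of strains. Comparisons without a call were not counted, and there too probes could differ in sign. Between strains in the mPFC the second probe gave 0.91 against −0.47 for Cacna1h and 0.75 against −0.12 for Cacna1d.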

How the data were processed

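Total RNA of at least RIN 8.0 from 31 samples was labelled with Cy3 and hybridised to one-colour Agilent arrays. Per the file headers, the deposited scanner files hold spot intensities (gProcessedSignal, background-subtracted) from Agilent Feature Extraction 10.7.3.1, and the submitters' processing notes also name limma, with no role given. The deposited series matrix holds the authors' log2 values for 30067 probes, with the same 75th percentile, 11.4303, in every column and medians of 9.1 to 9.31. How the authors chose those probes is not given in the sources used here.

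For 29 samples the matrix column equals a scanner file listed with another sample, 27 of them in another group. Each array therefore took the sample of the matrix column it correlates with best (at least 0.999994, and at most 0.998 with any other). Array pairs of a group whose differences were under 3 times those between spots of 1 array differed by little more than spot noise, and were averaged and counted as 1 sample (controls 1 and 3, and 2 and 4, of the C57 NAc, controls 2 and 4 of the DBA mPFC, and RCF 1 and 3 of the DBA mPFC). A sample was put in doubt where strain markers (Glo1, Gabra2, Gpnmb), striatal minus cortical markers or Xist lay past the midpoint. These choices were made after the values were seen, and the members and gene lists were chosen with earlier results of these data known.

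Values are log2 intensities minus each array's 75th percentile. Probes were kept if at least 3 arrays of a group showed them well above background and outliers on at most 50% of arrays, were named through RefSeq accessions, and the brightest probe stood for a gene. limma 3.58.1 (R 4.3.3, trended eBayes) fitted 8 group means, with Benjamini-Hochberg adjustment over all features at 0.05; the fit was tested on simulated data. Of 57 probes of these genes checked, 0 were saturated on any array. The 8 genes with the smallest F-test p are shown sample by sample, up to 12 passing genes were named per comparison, or the 3 with the smallest p where none passed, with up to 4 of the partner list. Beyond these, members are named by role. Some single results are not reported here, and their genes stay in the fits and counts. Alternatives were the files as listed, normexp background (offset 50, on the median spot signal, as no mean signal was read), quantile normalization, other filters, all 31 arrays, no samples in doubt, probe means, array weights, a replicate block, the matrix values, 2 groups in the fit, each sample left out and, added after seeing the data, control or RCF groups only. The number of samples limits the precision.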

Additional observations from a re-analysis of the deposited data

Results flagged for a closer look

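Among the 8 genes shown in every sample, 2 values stood apart from their group. The check covered 32 sets, the 8 genes in the 4 groups that hold 4 samples, and chance alone gives about 1 in 20. Groups of 2 or 3 samples were not checked, so the low Cacna1s value of DBA mPFC control 1 could not be flagged. Cacna1s was −1.67 in C57 mPFC RCF 1, below the other samples of its group, and Cacna2d2 was 2.38 in C57 NAc RCF 1, also below the rest. Both samples are among those in doubt by regional markers.

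The regional difference (NAc minus mPFC) differed between strains for 12 genes by the limma interaction term. In DBA against C57 it was lower for 9 genes, with log2 interactions that include −0.85 for Cacng6, −1.71 for Cacna1s, −1.52 for Cacng3, −1.02 for Scn4a, −0.86 for Cacng7, −1.22 for Cacnb1, −1.74 for Cacna1f and −0.84 for Cacnb3. It was higher for 3 genes, 1.84 for Cacna2d2, 2.54 for Scn9a and 2.00 for Scn10a. Without the samples in doubt Cacna1f, Cacnb3, Cacna2d2, Scn9a and Scn10a did not pass. Cacna1f, Scn9a and Scn10a were not above background on most arrays of at least 1 group. Each strain and region had its own slide, so slide cannot be told apart from this term.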

How the results depend on the processing

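With the scanner files as listed, the counts of changed channel genes were 0 for the C57 region, 0 for the DBA region, 23 for strain in the NAc, 0 for strain by tissue, 8 for RCF in the C57 mPFC, 11 in the C57 NAc, 4 in the mPFC and 4 in the NAc of DBA mice, and 8 and 9 for strain by RCF in the mPFC and NAc. Signs turned for Cacng4 in the C57 region (−0.003), Scn2a in the DBA region (0.022), Cacng1 between strains in the NAc (1.62), and in the mPFC Cacng3 (−0.81), Cacna1s (−0.72), Cacnb1 (−0.61), Cacng1 (0.46), Scn4a (−0.077), Cacnb3 (−0.91), Scn9a (2.38) and Scn8a (0.11). For RCF they turned for Cacna1b (0.20), Scn2b (0.019) and Cacna1h (−0.53) in the C57 mPFC, Cacna1s (−0.49), Cacna1d (−0.49) and Cacna1i (−0.49) in the DBA mPFC, and Cacna1i (−0.32), Cacna1h (−0.10) and Scn2a (−0.26) in the DBA NAc. For strain by RCF they turned for Cacna1s (−1.70), Cacna1b (−0.15) and Cacna2d2 (2.32) in the mPFC and Scn8a (−0.82), Cacna1i (−0.30) and Scn2a (−0.32) in the NAc, and for tissue by RCF for Scn8a (0.21) and Scn3b (0.061) in C57 and Cacna1s (0.17), Cacng3 (0.24) and Cacng7 (0.083) in DBA. That reading puts most arrays in another group. With normexp the sign of Cacna1f for strain by tissue turned (0.24), and counts were 0 for the C57 region, 4 for strain in the NAc and 7 for strain by tissue. The cause was not tested.

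The C57 region count of 1 became 2 with quantile normalization, 2 with probes above background on all arrays, 10 with all 31 arrays, 21 without the samples in doubt, 4 with probe means, 14 with array weights, 5 with the matrix values, 0 with control groups only and 4 with RCF groups only. Strain in the NAc gave 5 with control groups only and 5 with RCF groups only, and strain in the mPFC 8 with control groups only. RCF in the C57 NAc gave 2 with all 31 arrays, and 0 without the samples in doubt, with probe means or with 2 groups in the fit. Leaving out 1 sample gave 0 to 8 genes for the C57 region, 4 to 10 for strain in the NAc, 8 to 19 for strain by tissue, 0 to 4 for RCF in the C57 NAc and 0 to 2 for strain by RCF in the NAc (2 when control 2 and 4 of the C57 NAc were dropped). Of 43 named calls, quantile normalization kept 41, array weights 39 and probe means 37, with none reversed. Fewer calls held in other settings. Dropping the samples in doubt kept 31, with none reversed. Normexp kept 28 and reversed 1, and the scanner files as listed kept 3 and reversed 11. Quantile normalization moved the median of all features by 0.11 in the DBA region, the matrix values by 0.12 and normexp by up to 0.21 (strain by tissue). Higher calls between strains in the mPFC were 12 of 16 at first, 11 of 12 with the matrix values and 7 of 11 with normexp, and for strain by tissue 3 of 12 and, with the matrix values, 1 of 10.

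The replicate block on all 31 arrays gave 8 genes for the C57 region and 2 for RCF in the C57 NAc, and all 43 named calls kept their side of the threshold. Samples of the same number in different groups showed no common deviation (15 pairs, median r −0.02, range −0.64 to 0.42). The median was 0.05 over 45 pairs of other numbers. The lowest r, −0.64, joined C57 mPFC RCF 1 and C57 NAc RCF 1, both in doubt by regional markers. With such samples kept in and groups this small, the check cannot tell whether equal numbers mark 1 animal.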
